A study of Mus musculus with 16 samples.

Results

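The Rab, Snx and Vps genes are the 132 rows, out of 55423 in the deposited count table, whose mouse symbol begins with Rab, Snx or Vps followed by a digit. Pseudogenes and rows with fewer than 10 counts over all samples were left out. Of 142 matching names, 4 were pseudogenes and 6 fell below the minimum. The family sizes were 68 Rab, 29 Snx and 35 Vps genes. Among the Rab names, 55 are Rab GTPases, 10 are proteins named after a Rab they bind or act on (such as Rab11fip1 and Rab3il1), and 3 are antisense transcripts. The names are not all alike in function: Vps72, for instance, codes for a chromatin remodelling subunit. All 132 genes passed the filter of the test. The call rule also asked for a mean normalized count over 100, which 52 Rab, 27 Snx and 33 Vps genes reached, so that 112 could be called and 20 could not.

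Expression was measured by RNA sequencing in macrophages of the lymph node, sorted as live CD45+ CD3- B220- Ly6G- CD11b+ CD169+ cells. CD11c- cells with low side scatter are called SSMs (sub-capsular sinus macrophages) and CD11c+ cells with high side scatter MSMs (medullary sinus macrophages). All mice were male C57B/6 carrying MOC2, a chemically induced squamous cell carcinoma line implanted in the skin of the flank 2 weeks before. The animals' age is not given in the sources used here. The tumor-draining nodes (tdLN) and non-draining nodes (ndLN) came from the same tumor-bearing mice, so the ndLN are not nodes of healthy animals. Each of the 4 groups (SSMs and MSMs, from ndLN and tdLN) has 2 libraries, and each library pools the nodes of 2 mice, 2 tdLN or 6 ndLN. The ndLN pools mix 3 node sites, the contralateral inguinal, axillary and brachial. SSMs and MSMs with the same pool number come from the same pooled nodes.

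Rab GTPases cycle between a GTP-bound form on membranes and a GDP-bound form that is drawn back into the cytosol, and each marks a particular compartment and recruits the motors, tethers and fusion proteins for it. Sorting nexins bind phosphoinositides through a PX domain and shape or select cargo on endosomes. Vps proteins, first found through yeast mutants that missort vacuolar proteins, form the retromer, retriever, HOPS, CORVET, ESCRT and GARP complexes. Macrophages of lymph node sinuses take up particles and antigen from lymph, and this machinery decides whether cargo is recycled, returned to the Golgi or degraded.

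The 8 libraries held between 42972328 and 48130352 reads counted on genes, so a floor of 3 counts lies between 0.0623 and 0.0698 CPM (a gene's counts scaled to the library total). The floor covers counting error only. The gate did not give libraries of a single lineage by their RNA. Siglec1, which codes for CD169, lay between 9.75 and 17.1 CPM in SSMs from ndLN. In MSMs from ndLN it lay between 0.717 and 1.57 CPM. In tdLN Siglec1 had 67.7 and 59.6 CPM in SSMs and 5.72 and 5.32 CPM in MSMs. Sinus macrophage markers did not all go this way. Of 9 over the mean cut-off, the ndLN calls favored SSMs for 3 and MSMs for 3. In tdLN they favored SSMs for 4 and MSMs for 1. The list holds Itgax, which codes for CD11c, the marker that separated the subsets in the sort, so it is no independent marker here. Itgax had 113.6 and 73.3 CPM in SSMs and 357.6 and 403.6 in MSMs from ndLN. In tdLN it had 144.4 and 125.8 against 369.5 and 298.1 CPM. The sum of all 10 listed markers was 6893 to 10419 CPM in SSMs from ndLN and 4586 to 5520 CPM in MSMs from ndLN. Markers of innate-like lymphoid cells summed to between 2522 and 3210 CPM in SSMs from ndLN, 757.4 to 856.6 in SSMs from tdLN and 61.6 to 90.8 in MSMs from ndLN. Markers of dendritic cells summed to between 3723 and 4383 CPM in the MSM libraries and 923.3 to 2697 in the SSM libraries. In such bulk samples, fewer cells of a type and less RNA per cell cannot be told apart.

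The 68 Rab genes took between 4812 and 5030 CPM in the 4 SSM libraries and between 5731 and 6408 CPM in the 4 MSM libraries. The 29 Snx genes took between 2171 and 2416 CPM in all 8 libraries. The 35 Vps genes took 3915 and 4756 CPM in SSMs from ndLN, 3164 and 3130 in those from tdLN, and 2314 to 2568 in MSMs. The order of the Vps sums follows a single gene, Vps37b, a subunit of the ESCRT-I complex that hands ubiquitylated cargo into multivesicular bodies. Per kilobase of exon, the length-corrected level of Vps37b was 575.2 and 764.5 CPM in SSMs from ndLN, ahead of every other member there. Snx3, a retromer-associated nexin of early endosomes, followed with 149.0 and 147.4 CPM per kilobase. In MSMs the order was headed by Snx3, Rab7b and Rab7. Snx3 had 298.5 and 278.6 CPM per kilobase in MSMs from ndLN and Rab7b 300.9 and 248.7, neighbours that overlapped there. Vps37b (ENSMUSG00000066278) lies at chr5:124004641-124032270, and 48.9% of its exon bases lie opposite exons of Hip1r and Gm37939, and the strand setting of the counting is not given in the sources used here.

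The first comparison asks how the subsets differ without tumor drainage. In ndLN, 9 members passed as higher in SSMs and 23 as lower (edgeR's quasi-likelihood test, adjusted p under 0.01 over all genes tested). That is 8.04% and 20.5% of the 112 members over the mean cut-off, where over all 9996 such genes 12.7% were higher and 12.8% lower. Of the Rab genes 7 were higher and 10 lower, of the Snx genes 1 and 8, and of the Vps genes 1 and 5. The median log2 fold change (log2FC, with its standard error, SE) was -0.15 for Rab, -0.30 for Snx and -0.22 for Vps genes, and -0.06 over all genes. In each of the 32 called members the 2 SSM libraries lay on the same side of both MSM libraries. The calls come from the same libraries, so this adds no support to them. Members that were not called, such as Rab2a and Vps29, were apart in this way too. The number of lower members rests on the libraries: it was 7 and 10 without MSM_ndLN replicates 1 and 2, 10 without SSM_ndLN replicate 1, 13 without either SSM_tdLN replicate, and 6 when only the ndLN libraries were fitted. The calls of 6 higher members (Rab27b, Rab4a, Rab44, Rab37, Vps37b and Snx18) and 6 lower members (Snx22, Rab7b, Rab30, Rab43, Snx10 and Rab32) held without any 1 of the 8 libraries.

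**Figure D1:**
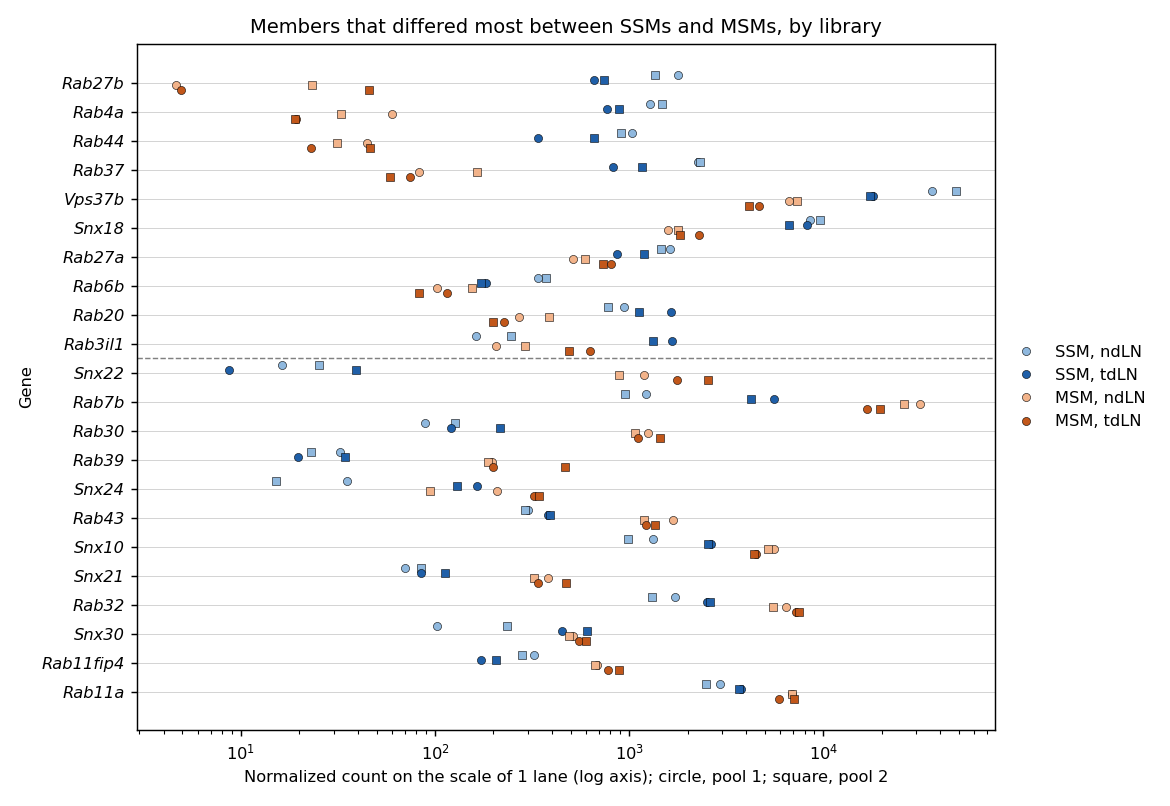
Normalized count on the scale of 1 sequencing lane (log axis) of the members with the largest called differences between SSMs and MSMs in either node, in each of the 8 libraries (color, group; circle, pool 1; square, pool 2). Above the dashed line are members higher in SSMs in at least 1 node, below it those lower. Rab27b, Rab4a, Rab44 and Rab37 lie between 340.5 and 2311 in SSM libraries and between 4.65 and 164.7 in MSM libraries.

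Of 11 genes listed for lysosome-related organelles and regulated secretion, 8 were over the mean cut-off. In ndLN 4 of these were higher in SSMs (Rab27a, Rab27b, Rab37 and Rab44), 1 was lower (Rab32) and 3 were not called (median 1.57 on the log2 scale). Rab27b, which docks secretory granules at the plasma membrane, had normalized counts of 1789 and 1364 in SSMs and 4.65 and 23.2 in MSMs. SSMs were thus far above MSMs in both pools, by a log2FC of 6.77 (SE 0.57, adjusted p = 1.83e-04). The related Rab27a, with a like role in secretory lysosomes of cytotoxic and other cells, had 1631 and 1465 against 511.9 and 595.5, a log2FC of 1.49 (SE 0.205, adjusted p = 0.00172).

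Rab44, a large Rab with EF-hand domains described in mast cell granule release, had normalized counts of 1035 and 902.4 in SSMs and 44.7 and 31.3 in MSMs. Its log2FC was 4.71 (SE 0.422, adjusted p = 2.43e-04). Rab37, another Rab of secretory granules, had 2264 and 2311 against 83.1 and 164.7, with a log2FC of 4.22 (SE 0.282, adjusted p = 6.69e-05). In both genes every SSM library was above every MSM library. Rab32 went the other way. This Rab of melanosome and lysosome-related organelle biogenesis had 1716 and 1317 in SSMs and 6388 and 5525 in MSMs, a log2FC of -1.98 (SE 0.157, adjusted p = 1.34e-04). Its close relative Rab38 had 28.3 and 52.7 against 131.9 and 104.1, a log2FC of -1.55 that did not pass (adjusted p = 0.0276).

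Markers of other cell types moved with these secretory members. Of 11 mast cell and basophil markers over the mean cut-off, 9 were higher in SSMs from ndLN and none was lower, and the list's sum was 2562 and 3732 CPM in SSMs against 606.6 to 667.9 in MSMs. Kit alone gave 546.8 and 593.1 CPM of the MSM sums, while Ms4a2 and Mrgprb1 had 0 counts in both MSM libraries and Cpa3 had 0.0231 and 0.0860 CPM. All 12 innate-like lymphoid markers, 9 of 10 NK and cytotoxic markers and 10 of 11 T cell markers were higher in SSMs as well, and 1 T cell marker was lower. The part of these cells in the values of Rab27b, Rab44, Rab37 and Rab27a was not tested. The plot of secretory Rab genes beside marker sums sets them next to each other by library.

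**Figure D2:**
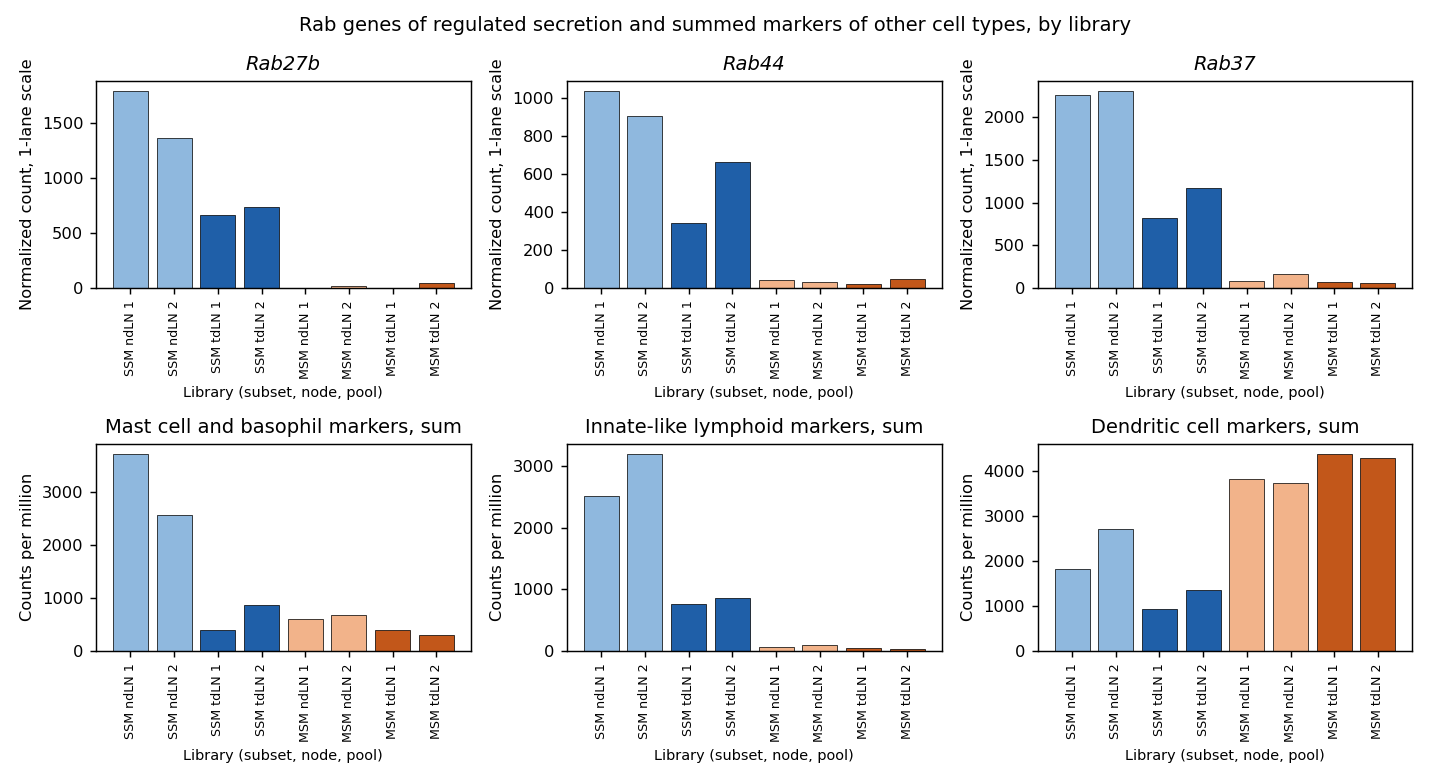
Upper row, normalized count (scale of 1 lane) of Rab27b, Rab44 and Rab37 in each library. Lower row, summed CPM of the mast cell and basophil, innate-like lymphoid and dendritic cell marker lists. Colors mark the 4 groups. The Rab genes and the innate-like lymphoid sum are highest in SSMs from ndLN, lower in SSMs from tdLN and near the axis in MSMs, whereas the dendritic cell sum is highest in MSMs. The mast cell and basophil sum is also highest in SSMs from ndLN, but at 606.6 to 667.9 CPM in MSMs from ndLN it lies within the 402.3 to 874.4 CPM of SSMs from tdLN.

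Among recycling endosome members, 1 of 16 was higher and 3 were lower in SSMs from ndLN, and 13 of 16 had a log2FC below 0 (median -0.32). Rab4a, which drives fast recycling from early endosomes to the surface, was the higher call, and 2 other members had values above 0 that did not pass. Rab4a had normalized counts of 1275 and 1473 in SSMs and 59.8 and 32.8 in MSMs, a log2FC of 4.91 (SE 0.284, adjusted p = 3.75e-05). Rab11a, the GTPase of the slow recycling compartment, had 2943 and 2496 against 6924 and 6891, a log2FC of -1.34 (SE 0.151, adjusted p = 6.60e-04). Rab11b, its near relative, had 2634 and 2723 against 3546 and 3320, a log2FC of -0.36 that did not pass (adjusted p = 0.0997). The Rab11 effector Rab11fip4 (-1.16) and Rab10 (-0.80), which acts in delivery to the plasma membrane, were also lower. The related Rab4b had a mean normalized count of 26.5 and could not be called, and 69.4% of its exon bases overlap another gene on the same strand.

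Among early endosome members, none of 10 was higher and 2 were lower in SSMs from ndLN (Rab31 and Snx3), with a median log2FC of -0.13. Rab5a, Rab5b and Rab5c, the GTPases of early endosome fusion, had log2FC values of -0.20, -0.05 and 0.02 with adjusted p between 0.344 and 0.996. The SEs were 0.140 for Rab5a, 0.228 for Rab5b and 0.403 for Rab5c. The pools of SSMs from ndLN disagreed for Rab5c, at 919.9 and 341.7 normalized counts. Vps8, a subunit found in the early endosome tether CORVET and not in HOPS, had 709.4 and 829.1 against 574.1 and 462.2, a log2FC of 0.57 that did not pass (adjusted p = 0.0925).

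Of 16 late endosome and lysosome members, 1 was higher (Vps37b) and 3 were lower (Rab7, Rab7b and Vps11), with a median log2FC of -0.34. Rab7b, described in macrophages in the turnover of Toll-like receptors and in transport from late endosomes to the trans-Golgi network, had normalized counts of 1221 and 955.1 in SSMs and 31538 and 26060 in MSMs. Both SSM libraries were far below both MSM libraries, with a log2FC of -4.73 (SE 0.197, adjusted p = 1.47e-05), or 26.5-fold lower. The gene (ENSMUSG00000052688) lies at chr1:131688695-131715439 of GRCm38 and overlaps no other gene's exons. Rab7, the general late endosome GTPase, had 5988 and 6404 against 11225 and 9998, a log2FC of -0.77 (SE 0.120, adjusted p = 0.00300). Rab9, of late endosome to Golgi transport, had a log2FC of -0.19 that did not pass (adjusted p = 0.568). Per kilobase of exon, the ratio of Rab7b to Rab7 was 0.115 and 0.0842 in SSMs from ndLN and 1.59 and 1.47 in MSMs from ndLN.

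**Figure D3:**
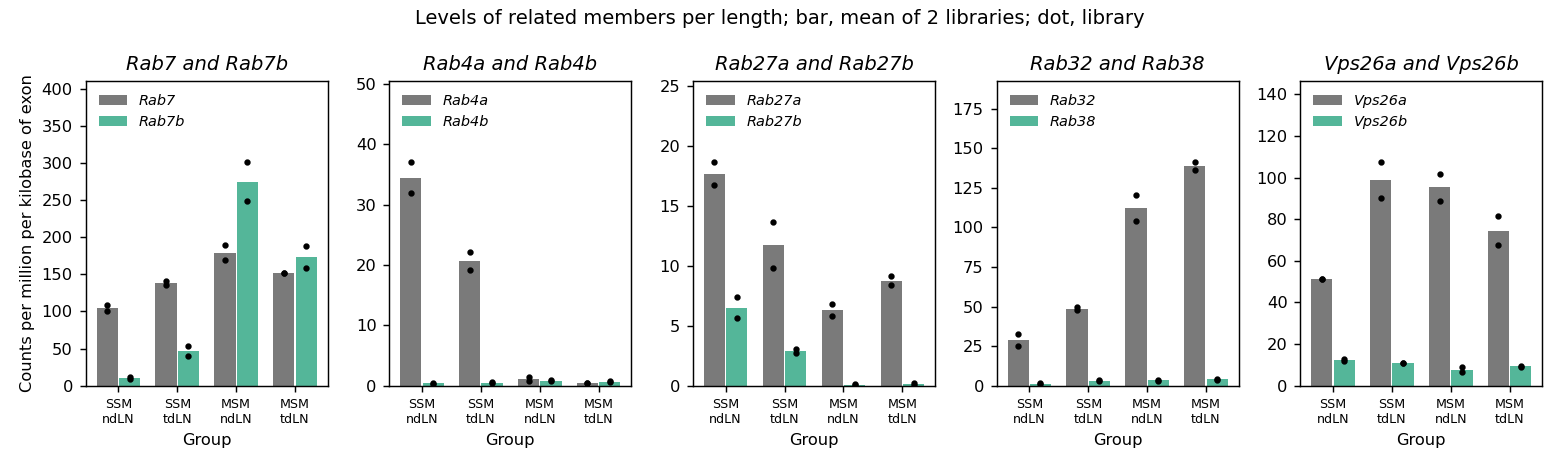
Level in CPM per kilobase of exon of 5 pairs of related members in the 4 groups (bar, mean of 2 libraries; dot, library; axes differ between panels). Rab7b is below Rab7 in SSMs and above it in MSMs, Rab4a is above Rab4b in SSMs and near it in MSMs, and Rab27b is below Rab27a in every group.

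Vps37b had 36357 and 48324 normalized counts in SSMs from ndLN and 6638 and 7350 in MSMs. Its log2FC was 2.59 (SE 0.16, adjusted p = 4.63e-05). No other ESCRT member was called, and 5 of the 7 over the mean cut-off had values below 0. Of 7 HOPS and CORVET members 1 was lower, the shared core subunit Vps11 (-0.81, adjusted p = 0.00674). The HOPS subunits Vps39 and Vps41 had log2FC values of -0.32 and -0.53 that did not pass (adjusted p = 0.234 and 0.0583).

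The retromer, which returns cargo from endosomes to the Golgi and the surface, was lower in part. Of 6 retromer and retriever members 3 were lower in SSMs from ndLN, the retromer subunits Vps35 and Vps26a and the retriever subunit Vps26c. Vps35 had normalized counts of 2830 and 3492 against 6960 and 6311, a log2FC of -1.06 (SE 0.182, adjusted p = 0.00480). Vps26a had 3334 and 3320 against 6608 and 5766, a log2FC of -0.89 (SE 0.128, adjusted p = 0.00214). The alternative subunit Vps26b lay the other way, with 1371 and 1461 against 1010 and 762.2, at 0.69 and an adjusted p of 0.0256 that missed the cut-off. Vps29 had a log2FC of -0.22 (adjusted p = 0.284). None of the 4 SNX-BAR partners over the mean cut-off was called, and all 4 had negative values (median -0.33).

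Other nexins were more often lower than higher. Snx22 had the largest fall, with 16.3 and 25.2 normalized counts in SSMs from ndLN and 1190 and 883.4 in MSMs, a log2FC of -5.67 (SE 0.456, adjusted p = 1.51e-04). The gene (ENSMUSG00000039452) lies at chr9:66065176-66069719, and 28.5% of its exon bases lie opposite Ppib. Snx10, an endosomal nexin known from osteoclasts, had 1325 and 985.8 against 5591 and 5161, a log2FC of -2.22 (SE 0.153, adjusted p = 7.36e-05). Snx18, an SH3-domain nexin of endocytosis and autophagy, went the other way with 8490 and 9647 against 1588 and 1787, a log2FC of 2.43 (SE 0.183, adjusted p = 1.09e-04). Snx20, which binds the selectin ligand PSGL-1, was lower by -0.98 (adjusted p = 0.00101), and Snx24, Snx21, Snx30, Snx8 and Snx3 by between -2.55 and -0.96.

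Golgi members followed the same direction. Of 10 Golgi and endoplasmic reticulum members 3 were lower in SSMs (Rab30, Rab39 and Rab43) and 1 higher (Rab6b). Rab30, a Golgi GTPase, had 88.4 and 126.4 normalized counts in SSMs and 1253 and 1073 in MSMs, a log2FC of -3.46 (SE 0.285, adjusted p = 1.62e-04). Rab43, a Golgi GTPase described in cross-presentation by dendritic cells, had 300.9 and 290.4 against 1673 and 1187, a log2FC of -2.27 (SE 0.213, adjusted p = 2.95e-04). Its exon bases overlap Gm45140 on the same strand by 75.4%, so reads of the shared part may have been dropped or assigned to either gene. Beside these members, 6 of 10 dendritic cell markers were lower in SSMs, and Xcr1 lay between 28.2 and 38.7 CPM in SSMs from ndLN and between 677.0 and 678.5 in MSMs from ndLN. Their part in the values of Rab43, Rab30, Rab7b and Snx22 was not tested. Rab20, a Rab of phagosome maturation, was higher in SSMs, with 936.6 and 776.0 against 270.8 and 386.4 (log2FC 1.36, adjusted p = 0.00787), and that call held in 1 of 8 fits that left out a library. Leaving out a library also ended the calls of Rab6b, Rab11fip4, Vps11 and Vps26c in all 8 fits.

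The second comparison asks the same of tdLN, with separate libraries. Here 8 members were higher and 11 lower in SSMs, 7.14% and 9.82% of the 112, where over all genes 10.9% were higher and 7.44% lower. The medians were 0.03 for Rab, -0.14 for Snx and 0.08 for Vps genes, and 0.01 over all genes. Of the 8 higher members 7 had also been called higher in ndLN, which is 87.5% of the tdLN list and 77.8% of the ndLN list. All 11 lower members had also been called lower in ndLN, 47.8% of the ndLN list. Of the 12 members called lower in ndLN and not in tdLN, 5 were Vps genes (Vps11, Vps26a, Vps26c, Vps35 and Vps9d1). In the interaction, which tests that difference, these 5 had adjusted p between 0.0279 (Vps26a) and 0.600 (Vps11), so at 0.01 it was not shown to differ between nodes. No Vps gene was called lower in tdLN. The higher count fell to 5, 4, 4 and 5 without MSM_tdLN replicate 1 or 2 or SSM_tdLN replicate 1 or 2, and the lower count to 7, 3, 3 and 2 in the same order.

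Rab4a had the largest rise in this node, with normalized counts of 764.8 and 883.8 in SSMs from tdLN and 19.2 and 19.0 in MSMs, a log2FC of 5.43 (SE 0.332, adjusted p = 8.83e-05). Rab27b had 660.6 and 738.3 against 4.94 and 45.9, a log2FC of 4.74 (SE 0.534, adjusted p = 9.57e-04). Rab37 (3.89), Rab44 (3.81), Vps37b (2.01) and Snx18 (1.85) were higher again, Rab3il1 was higher here (1.42, adjusted p = 0.00935), and the Rab27a difference was 0.42 and did not pass (adjusted p = 0.237). The mast cell and basophil sum was 402.3 to 874.4 CPM in these SSMs against 294.2 to 392.7 CPM in MSMs, with 7 of 11 markers higher and 1 lower in SSMs, and 11 of 12 innate-like lymphoid, 9 of 10 NK and cytotoxic and 9 of 11 T cell markers were higher. Of 10 dendritic cell markers 8 were lower in SSMs from tdLN. The part of these cells in the tdLN values, lower members such as Snx22, Rab7b, Rab30 and Rab43 included, was not tested.

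Rab20 had 1643 and 1118 normalized counts against 226.3 and 199.1, a log2FC of 2.69 (SE 0.272, adjusted p = 6.02e-04). Snx22 was lowest again, with 8.64 and 39.0 against 1762 and 2540, a log2FC of -6.50 (SE 0.449, adjusted p = 1.36e-04). Rab7b had 5585 and 4223 against 16689 and 19683, so the libraries stayed apart, with a log2FC of -1.91 (SE 0.174, adjusted p = 3.86e-04). Rab11a (-0.81), Rab32 (-1.52), Rab43 (-1.75), Rab30 (-2.92), Rab39 (-3.59), Rab11fip4 (-2.14), Snx21 (-2.03), Snx10 (-0.77) and Snx3 (-0.64) were the other lower members.

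By compartment, 1 of 10 early endosome members was lower in SSMs from tdLN (Snx3, median over the list 0.07), and of 16 recycling members 1 was higher and 2 lower (median -0.13). Of 16 late endosome members 1 was higher and 1 lower (median -0.12), and of 8 secretory members 3 were higher and 1 lower (median 0.50). Retromer and retriever had 0 of 6 called (median 0.07), against 3 lower in ndLN, and Vps35 had 5859 and 4782 normalized counts in SSMs and 7218 and 5455 in MSMs, so that the subsets overlapped. The 5 GARP and EARP members, which tether vesicles returning from endosomes, and the 4 VPS13 lipid transfer proteins had no call in any of the 4 comparisons.

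**Figure D4:**
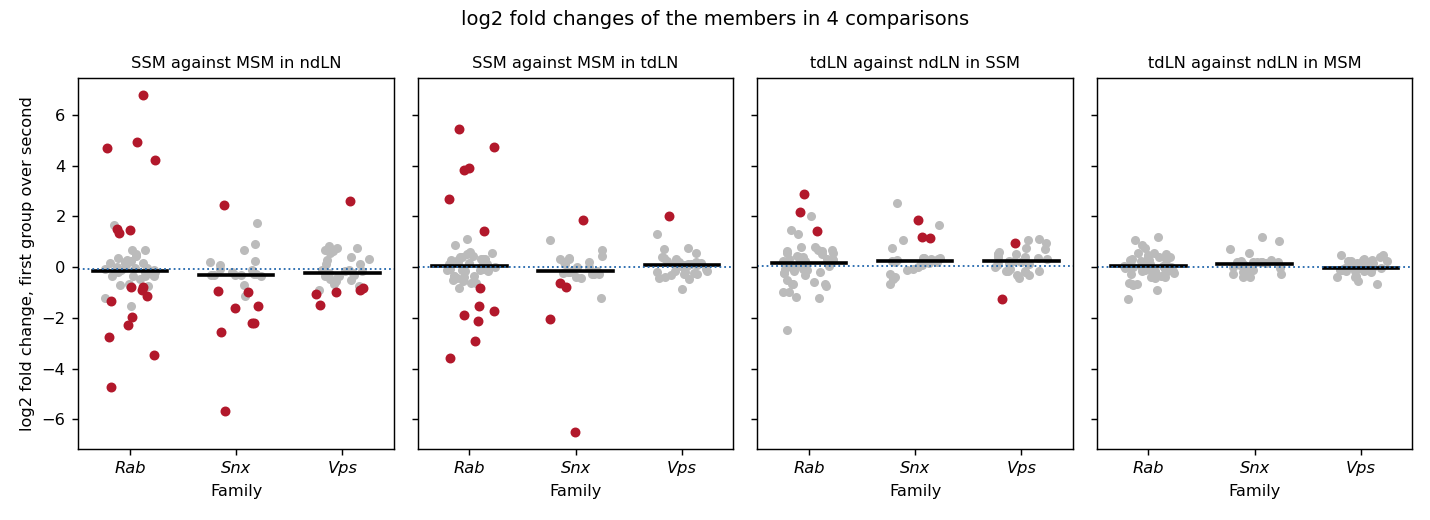
log2FC (first group over second) of each of the 112 members over the mean cut-off, by family, in 4 comparisons. Red points passed the test, gray points did not, black bars are family medians and the dotted line is the median of all genes. Called members lie on both sides in the subset comparisons, 7 rose and 1 fell in SSMs from tdLN, and none was called in MSMs.

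The third comparison asks what differed in SSMs when the node drained the tumor. It uses the same SSM libraries from ndLN as the first comparison, so the values of both comparisons are linked through them. In SSMs, 7 members rose in tdLN (Rab3il1, Rab7b, Snx8, Rab31, Snx10, Snx2 and Vps26a) and 1 fell (Vps37b). That is 6.25% and 0.893% of the 112, where over all genes 4.18% rose and 2.21% fell. The median log2FC was 0.17 for Rab, 0.24 for Snx and 0.23 for Vps genes, and 0.05 over all genes. With DESeq2's size factors these medians were 0.11, 0.18, 0.17 and -0.012. No call outlasted every single left-out library: the rises numbered 4 without either MSM_ndLN replicate, 3 without either MSM_tdLN replicate, 1 without SSM_ndLN replicate 1 and 0 without SSM_ndLN replicate 2 or either SSM_tdLN replicate. None of the 8 passed when only the 4 SSM libraries were fitted.

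Rab3il1, an exchange factor for Rab8 and Rab3, rose most, from 161.7 and 246.9 normalized counts in ndLN to 1662 and 1334 in tdLN, a log2FC of 2.88 (SE 0.29, adjusted p = 0.00224). Rab7b rose from 1221 and 955.1 to 5585 and 4223, a log2FC of 2.17 (SE 0.179, adjusted p = 0.00158). Snx8, a nexin of endosome to Golgi transport, rose from 316.8 and 384.8 to 1207 and 1332, a log2FC of 1.86 (SE 0.239, adjusted p = 0.00467). In all of these both tdLN libraries lay above both ndLN libraries, which adds no support to calls made from the same libraries.

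Rab31, an early endosome and trans-Golgi GTPase, rose from 1074 and 1021 to 2902 and 2735, a log2FC of 1.43 (SE 0.136, adjusted p = 0.00197). Snx10 rose from 1325 and 985.8 to 2649 and 2546 (1.18, SE 0.15, adjusted p = 0.00457). Snx2, a SNX-BAR partner of retromer, rose from 3534 and 2632 to 6886 and 6543 (1.13, SE 0.162, adjusted p = 0.00672). The retromer subunit Vps26a rose from 3334 and 3320 to 6954 and 5850 (0.94, SE 0.128, adjusted p = 0.00586). Other retromer and retriever members gave positive values that missed the cut-off: Vps26c 1.05 (adjusted p = 0.0119), Vps35 0.74 (adjusted p = 0.0461) and Vps29 0.52 (adjusted p = 0.0523). Vps26b was at -0.18.

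Vps37b fell from 36357 and 48324 to 18001 and 17449 normalized counts, a log2FC of -1.25 (SE 0.153, adjusted p = 0.00389). Of 8 members of regulated secretion 5 had values below 0 and 3 above, with a median of -0.80, and none passed. Below 0 were Rab26 -2.48 (adjusted p = 0.0123), Rab37 -1.22 (adjusted p = 0.0177), Rab27b -1.18 (adjusted p = 0.0789), Rab44 -1.0 (adjusted p = 0.0870) and Rab27a -0.6 (adjusted p = 0.115). Above 0 were Rab38 1.46 (adjusted p = 0.0654), Rab32 0.77 (adjusted p = 0.0223) and Rab3d 0.22 (adjusted p = 0.653). Early endosome members had a median of 0.34 with 1 of 10 called, recycling members 0.15 with 0 of 16 called, and late endosome members 0.16 with 1 rise and 1 fall among 16. The Rab5 genes had log2FC values of 0.07, 0.56 and 0.54 (Rab5a, Rab5b and Rab5c), and none passed.

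Cell type markers moved between these SSM libraries too. Of 9 sinus macrophage markers over the mean cut-off, 5 rose in tdLN and none fell, and the list's sum went from 6893 and 10419 CPM to between 15479 and 21696 CPM. Of 12 innate-like lymphoid markers 7 fell, as did 3 of 11 T cell markers, while of the mast cell and basophil markers 2 fell and 1 rose. Whether the 7 rises and the fall of Vps37b follow the mix of cells was not tested.

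Promoter sequences are shown for the members that rose together in SSMs from tdLN, since it can be read from them which carry the palindrome CACGTG. This hexamer is an E-box and the core of the CLEAR element bound by TFEB and related factors at lysosomal genes. The sequences are RefSeq's on GRCm38.p6, the strand of the gene, and run from 250 to 6 bases before the start site. CACGTG is in capitals, and no other part is marked. Rab7b and Snx2 are not shown.
Rab3il1, chr19:10017944-10018188, + strand: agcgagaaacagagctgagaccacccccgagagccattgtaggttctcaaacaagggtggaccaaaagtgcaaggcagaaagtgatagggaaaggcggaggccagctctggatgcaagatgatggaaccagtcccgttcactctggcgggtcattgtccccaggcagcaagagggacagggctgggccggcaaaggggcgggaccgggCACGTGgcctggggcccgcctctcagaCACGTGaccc
Snx8, chr5:140389314-140389558, - strand: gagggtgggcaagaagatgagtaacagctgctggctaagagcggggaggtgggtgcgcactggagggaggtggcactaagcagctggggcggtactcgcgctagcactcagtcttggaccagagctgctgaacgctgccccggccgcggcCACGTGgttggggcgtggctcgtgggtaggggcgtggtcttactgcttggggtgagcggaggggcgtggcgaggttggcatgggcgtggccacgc
Vps26a, chr10:62486811-62487055, - strand: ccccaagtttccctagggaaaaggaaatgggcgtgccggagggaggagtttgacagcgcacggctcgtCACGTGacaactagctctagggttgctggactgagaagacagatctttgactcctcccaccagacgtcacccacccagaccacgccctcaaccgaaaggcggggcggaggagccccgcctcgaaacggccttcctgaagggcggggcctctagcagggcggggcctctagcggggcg
Rab31, chr17:65772758-65773002, - strand: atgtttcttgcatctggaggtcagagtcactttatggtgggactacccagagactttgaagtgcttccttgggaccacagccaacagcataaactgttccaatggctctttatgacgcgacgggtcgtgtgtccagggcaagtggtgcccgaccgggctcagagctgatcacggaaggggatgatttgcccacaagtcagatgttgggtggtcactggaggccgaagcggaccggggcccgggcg
Snx10, chr6:51523653-51523897, + strand: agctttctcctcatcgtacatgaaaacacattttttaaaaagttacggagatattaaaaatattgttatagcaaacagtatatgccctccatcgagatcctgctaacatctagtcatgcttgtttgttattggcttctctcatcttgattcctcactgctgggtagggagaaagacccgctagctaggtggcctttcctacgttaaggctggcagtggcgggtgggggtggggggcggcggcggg

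The shown window of Rab3il1 held CACGTG at 2 places, beginning 42 and 15 bases before the start site, Snx8 at 1 place, 100 bases before it, and Vps26a at 1 place, 182 bases before it. The shown windows of Rab31 and Snx10 held none. Where a gene has several start sites in the table, the shown window is the first whose printed bases hold no annotated exon. Of the 5 windows of Rab3il1, 3 held no CACGTG, among them the window that ends just before the annotated start of the gene (chr19:10001669-10038380), and the shown window lies inside the gene. All 3 windows of Snx10 lacked it, and both windows of Vps26a held it. The table had 97 of the 132 members, with 125 windows of 250 bases before a start site. CACGTG, searched on both strands, was in 16 of these windows (12.8%), from 14 members, and in 6.02% of all 32851 windows. The 14 members include Rab5a and Vps33a, which edgeR called in no comparison. The longer GTCACGTG, which contains the hexamer, was in 7.20% of member windows and 1.85% of all. TCACGTGA, which overlaps both, was in 4.80% and 0.785%. TGACTCA, the AP-1 element, was in 4.0% and 4.46%, GGAAGT in 19.2% and 19.7%, and TGACGTCA in 1.60% and 1.55%. A match is a description of the letters and not of binding.

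In MSMs, 0 of the 112 members were called between tdLN and ndLN (edgeR), where over all genes 0.05% were called in either direction. At an unadjusted p under 0.05 there were 20 members (17.9%), against 18.2% of all 9996 genes. A DESeq2 Wald test called 496 genes in all, of which 1 was a member, Vps37b, with a log2FC of -0.70 (adjusted p = 0.00453). In edgeR it had the smallest adjusted p of the members, 0.152, with 6638 and 7350 normalized counts in ndLN and 4640 and 4123 in tdLN. Rab3il1 had 205.1 and 289.9 in ndLN and 628.5 and 490.0 in tdLN, at 1.17 with an adjusted p of 0.185. Rab7b had 31538 and 26060 in ndLN and 16689 and 19683 in tdLN, at -0.65 with an adjusted p of 0.193. In each of these genes the ndLN and tdLN libraries did not overlap. With 2 libraries a group, that adds no support to differences that edgeR did not call. The share of all genes without overlap is not given here.

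The interaction asks whether the change from ndLN to tdLN differed between SSMs and MSMs, and uses all 8 libraries. At an adjusted p under 0.01 edgeR called 0 members, where over all genes 0.08% were called. At an unadjusted p under 0.05 there were 25 members (22.3%), against 20.8% of all genes. A DESeq2 Wald test called 7 members at an adjusted p under 0.01, where it called 677 genes in all. At an adjusted p under 0.05, a looser threshold listed among the alternatives, 4 members passed in edgeR, where over all genes 2.15% did. They were Rab7b, Rab31, Vps26a and Snx10.

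**Figure D5:**
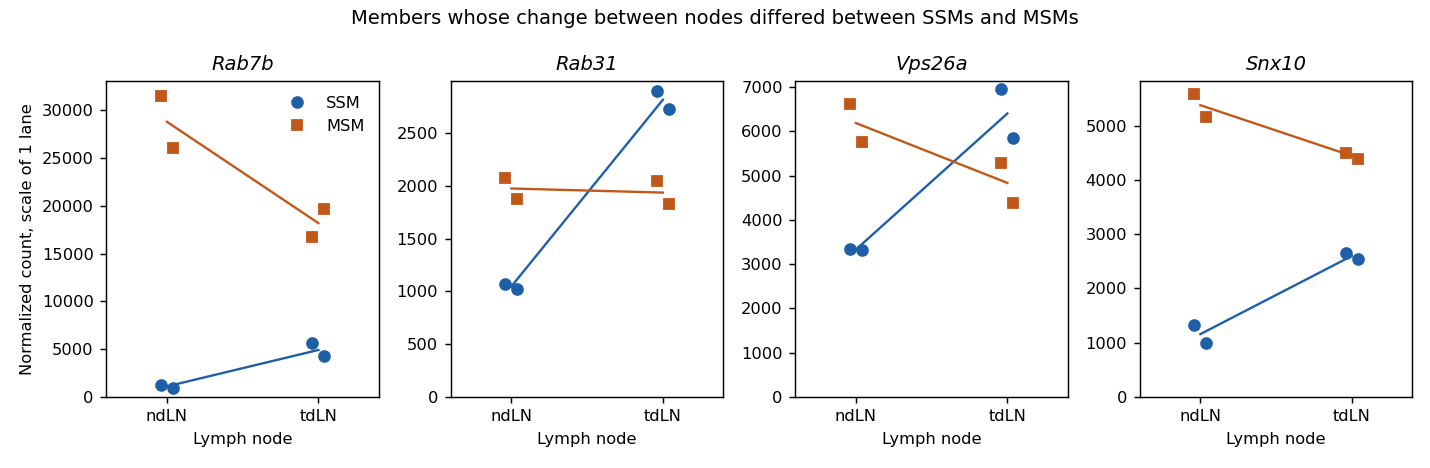
Normalized count (scale of 1 lane, linear axes from 0) of Rab7b, Rab31, Vps26a and Snx10 in ndLN and tdLN, for SSMs (blue circles) and MSMs (orange squares). Each point is a library and lines join group means. All 4 rise in SSMs, and in MSMs the mean of Rab7b goes from 28799 to 18186 while Rab31 has means of 1976 and 1937.

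Rab7b rose by 2.17 on the log2 scale in SSMs and lay at -0.65 in MSMs, a difference of 2.82 (SE 0.244, adjusted p = 0.0110). Per kilobase, its ratio to Rab7 was 0.377 and 0.298 in SSMs from tdLN and 1.05 and 1.23 in MSMs from tdLN, so the subsets were closer in tdLN than in ndLN. Rab31 rose by 1.43 in SSMs and lay at -0.03 in MSMs, a difference of 1.46 (SE 0.19, adjusted p = 0.0229). Its levels were lower in SSMs than in MSMs in ndLN (-0.91, adjusted p = 0.00248), and lay at 0.54 in tdLN (adjusted p = 0.0300, not passing).

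Vps26a lay at 0.94 in SSMs and -0.36 in MSMs, a difference of 1.3 (SE 0.181, adjusted p = 0.0279). Snx10 lay at 1.18 and -0.27, a difference of 1.45 (SE 0.208, adjusted p = 0.0312). All 4 differences have SSMs from ndLN as the lowest of the 4 groups.

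Of 49 other genes of the pathway, 48 were fitted and 46 passed the mean cut-off. In ndLN 2 were higher in SSMs (Rabgef1 and Lamp1), and Gdi2, Uvrag and Ccz1 were lower. In tdLN 5 were higher (Rabgef1, Rin2, Ehd4, Lamp1 and Lamp2) and 1 lower (Gdi2). In SSMs 4 rose in tdLN (Gdi2, Ehd4, Lamp1 and Lamp2), none fell, and none of the 46 was called in MSMs or in the interaction at 0.01. Gdi2, which extracts GDP-bound Rab proteins from membranes, had 6784 and 6192 normalized counts in SSMs from ndLN, 13091 and 12171 in those from tdLN, and 24002 to 30197 in MSMs. Its log2FC was -2.21 between subsets in ndLN (SE 0.109, adjusted p = 2.33e-05) and 0.96 between nodes in SSMs (adjusted p = 0.00265). Lamp1, a lysosomal membrane protein, went from 11523 and 10921 to 25824 and 23390 in SSMs, a log2FC of 1.13 (adjusted p = 0.00197).

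Among the 20 members that could not be called, Rab15 had 0 counts in every MSM library. It had 120 and 45 counts in SSMs from ndLN and 39 and 17 in SSMs from tdLN, which places it at least 20.3-fold higher in SSMs than the floor of 3 counts per library in ndLN and at least 8.69-fold in tdLN (adjusted p = 0.0172 and 0.0901). Vps25 had between 12 and 28 counts in any library, and 67.2% of its exon bases overlap Ramp2 on the same strand. Overlap with other genes also limits Rab24 (62.4% opposite Prelid1) and Rab2b (64.0% antisense). By transcript sequence, over 20% of the 50-base windows were shared with another gene in 9 of the 132 members, among them Rab43 (86.2%), Snx22 (23.6%) and Rab20 (22.7%).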

How the data were processed

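Gene expression was measured in 16 samples, that is, 8 libraries with lanes 3 and 4 deposited apart. Per the labels, the authors used bcl2fastq 2.20.0.422, Trimmomatic 0.36 and STAR 2.5.3a on GRCm38 and deposited raw read counts per gene, with no normalization. The strand setting and the annotation are not given in the sources used here. Symbols, positions and exon lengths were taken from GENCODE M21.

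Lanes were summed after a check: chi-square divided by its degrees of freedom lay at 0.955 to 1.015 for lanes of a library and at 29.3 to 53.1 for pools. The 2 libraries of a group pool different mice. Genes needed 10 counts and detection in 2 samples, which left 21085. edgeR 4.0.16 (R 4.3.3) fitted group and pool on TMM-normalized counts of all 8 libraries, and the quasi-likelihood test was adjusted by Benjamini-Hochberg over all genes. The SE was worked back from this test, as the size of the log2FC divided by the square root of the F statistic. A called gene had an adjusted p under 0.01 and a mean normalized count over 100 on the scale of 1 lane. The test was tried on simulated data first. Pool is a term because the study's model has one, and same-numbered SSMs and MSMs were taken to come from the same pooled nodes. The term also joins ndLN and tdLN libraries by number. Whether a number stands for the same mice in both nodes is not given in the labels. Deviations of same-numbered SSMs and MSMs from the group means had an r across genes of -0.0106 in ndLN and 0.155 in tdLN.

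The members and lists were chosen with earlier results of these data known. Named were, of the called members that moved the same way in both pools, the 10 largest rises and falls of each comparison, and always the Rab5, Rab4a, Rab11, Rab7, Rab9, Rab27, Rab32 and Rab38 genes, retromer, Vps39, Vps41 and Vps8. Others named were the rest of the called members and those singled out after their values were seen. Alternatives were the model without pool, DESeq2 1.42.0, its size factors, other filters and cut-offs, each lane alone, only the groups compared, the legacy fit and each library left out. Python 3.11, numpy 2.4.6, pandas 2.3.3 and matplotlib 3.10.9 were used for summaries and plots.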

Additional observations from a re-analysis of the deposited data

Results flagged for a closer look

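The change from ndLN to tdLN differed between SSMs and MSMs in 4 members by the interaction term at an adjusted p under 0.05 (edgeR, 8 libraries). Over all genes 2.15% passed at that threshold. In the 4 members the log2 difference, SSMs minus MSMs, was 2.82 for Rab7b, 1.46 for Rab31, 1.45 for Snx10 and 1.3 for Vps26a. Each rose in both pools of SSMs. In MSMs Rab7b, Snx10 and Vps26a were lower in tdLN in both pools. The adjusted p-values lay between 0.0110 and 0.0312, and none passed at 0.01 in the fit described. All 4 passed at 0.01 with DESeq2. It used the same 8 libraries and called 677 genes in all, where edgeR called 8, so this adds no independent support.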

How the results depend on the processing

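No log2FC of a called member named here turned its direction. Medians of families and compartments were compared by size and not by sign. Of these, 8 moved by more than the spread between pools and 88 did not, and 34 and 158 with 1 library left out. The all-gene median in SSMs between nodes went from 0.047 to -0.012 with DESeq2's size factors. Higher and lower members in SSMs against MSMs numbered 9 and 23 in ndLN, and 8 and 11 in tdLN. Leaving out 1 library gave 6 to 7 and 7 to 18 in ndLN, and 4 to 8 and 2 to 13 in tdLN. DESeq2's Wald test gave 16 higher in ndLN and 13 in tdLN, as did an adjusted p under 0.05, and a fit of only the ndLN groups gave 6 lower. In SSMs, 7 members rose and 1 fell between nodes. Without 1 library 0 to 4 rose and 0 to 1 fell. DESeq2 gave 18 and 4, an adjusted p under 0.05 gave 19 and 3, and only the groups compared gave 0 and 0. The fall counted 2 with edgeR's filterByExpr, with lane 3 or lane 4 alone and without the replicate block. In MSMs the count was 0, 0 without any 1 library, and 1 with DESeq2. The interaction counted 0, 0 without any 1 library, 7 with DESeq2, 4 at an adjusted p under 0.05, and 1 with filterByExpr, lane 3 alone, lane 4 alone, no low-count filter or no replicate block. Over all genes, DESeq2 called 3671 in ndLN, 2989 in tdLN, 1932 in SSMs between nodes, 496 in MSMs and 677 in the interaction, in either direction. The edgeR fit described called 2545, 1833, 639, 5 and 8 in the same order, and 3886, 3023, 1832, 93 and 215 at an adjusted p under 0.05. The cause of these moves was not tested, beyond fewer libraries in the fits that drop some.

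The pairing by pool changed no other count by over 1.5 times. Without the replicate block 37 members were called in ndLN, 19 in tdLN and 12 in SSMs between nodes, and these held 32, 19 and 8 of those called with it. With 2 pools a group the errors rest on few degrees of freedom. Low members such as Rab4b and Vps25 had few counts, and both overlap another gene on the same strand. What keeps their counts low was not tested.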
